A study of Mus musculus with 6 samples.

Results

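The genes described here encode integrin subunits and the proteins that gather on their cytoplasmic side at focal adhesions. The list held 35 genes: 19 integrin subunits, 7 proteins that link them to actin, the 3 proteins of the Ilk complex, the kinase Ptk2 with the scaffolds Pxn and Bcar1, and Cav1, Cd44 and Sdc4. Each gene was represented by its brightest probe set, the one with the highest mean over the 6 arrays among probe sets annotated to that gene alone. Of the 35 genes, 33 had such a probe set, out of 18193 genes on the array. Itga11 and Ptk2 were not analysed here. Of the 33, 27 had a mean log2 value of at least 3, the minimum for testing, and 6 did not.

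The RNA came from cultured mouse sarcoma cells of strain C57BL6/J grown to confluence in medium with serum. In 3 samples Dicer was heterozygous (one allele lost) and in 3 it was null (both lost). Every sample thus lacked at least one intact allele of Dicer, and none was wild type. The labels do not say how the tumours arose, which exons of Dicer were removed, or whether the 3 samples per genotype were independent lines or repeated cultures. The p-values therefore measure the spread between these samples, which may be technical. The title of the series names let-7 and Nr6a1 in fibroblasts, and the comparison asks what loss of the second Dicer allele does to transcript levels.

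Integrins are receptors made of one alpha and one beta chain that bind matrix proteins outside the cell. The pairing sets the ligand: some alpha chains bind collagen, others laminin, and others the RGD tripeptide of fibronectin and vitronectin. Inside the cell, talin and kindlin bind the beta tail and switch the receptor on, vinculin, alpha-actinin, zyxin and tensin connect it to actin, and a kinase-scaffold layer signals from the site. Mesenchymal cells such as fibroblasts and sarcoma cells rely on these contacts to attach, spread and pull on their matrix.

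Dicer cuts precursor hairpins into mature microRNAs, which find their targets mainly through the seed, bases 2 to 8. The let-7 family is shown because the series title names it and because let-7a has been reported to act on the integrin beta 3 transcript in melanoma. The microRNA miR-31 is shown because it has been reported to act on integrin alpha 5 in breast cancer cells. The mature sequences below are those of RefSeq (GRCm38.p6), 5′ to 3′, with the seed in capitals.
mmu-let-7a-5p: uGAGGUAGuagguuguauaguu
mmu-let-7d-5p: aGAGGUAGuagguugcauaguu
mmu-let-7g-5p: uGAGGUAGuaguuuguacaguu
mmu-miR-98-5p: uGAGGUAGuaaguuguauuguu
mmu-miR-31-5p: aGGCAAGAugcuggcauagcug
The first 4 share one seed, which 11 mature microRNAs of that table carry, and they differ only outside it. The seed of miR-31 is another, and no other mature microRNA of the table has it. The arrays did not measure microRNAs, and target sites in the members' transcripts were not searched.

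The arrays held 45037 probe sets as log2 values, with medians between 3.32 and 3.43. Dicer1 itself did not separate the groups: its 2 probe sets gave log2 differences of 0.14 and 0.27 (limma adjusted p = 0.693 and 0.573), and where they lie relative to the deleted part is not known. Of 10 mesenchymal markers 9 were tested, and Vim, the intermediate filament of such cells, lay between 13.71 and 13.84 on every array. None of the 9 was called. The growth factor receptor Pdgfra (-1.63, limma adjusted p = 0.0593) and the calcium-binding protein S100a4 (-1.37, limma adjusted p = 0.057) were lower in every null array. Pdgfrb differed by -1.03 (limma adjusted p = 0.186). Of the 9 differences 6 were negative and 3 positive (Col1a2 0.01, Col3a1 0.17 and Sparc 0.08), with a median of -0.17. The part of these markers in the members' differences was not tested. All 6 endothelial markers and 5 of 6 leukocyte markers had means below 3, Ptprc among them at 1.55 to 1.62. The leukocyte marker that was tested, Cd68, lay between 4.43 and 7.13 (difference -0.70, limma adjusted p = 0.535). Heterozygous replicate 3 stood apart in its proliferation genes: the median of 11 such genes, each set against its mean over the arrays, was -0.93 on that array and between -0.03 and 0.50 on the other 5. All 11 had positive differences, as did 48.7% of all tested genes. None of the 11 was called, and their median was 0.68. In 8 of the 11 every null array lay above every heterozygous one, as in 14.9% of all tested genes. The array medians were 0.06 and -0.03 on heterozygous replicates 1 and 2, and 0.26, 0.50 and 0.32 on the null arrays. How much of this difference goes with genotype and how much with heterozygous replicate 3 was not tested. The part of the proliferation genes in the members' differences was not tested either. Heterozygous replicate 1 stood apart in the keratin Krt18, at 9.02 against at most 2.68 elsewhere. Krt18 was 1 of 3 tested among 7 epithelial markers. The keratin Krt19 read 8.92, 7.07 and 4.75 in heterozygous and 8.50, 8.15 and 6.49 in null arrays. Epcam lay between 2.53 and 5.21, highest on null replicate 2.

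None of the tested members was called. Of the 27 tested members 0 were higher and 0 lower in Dicer null arrays (limma, Benjamini-Hochberg adjusted p under 0.05), while 3.46% of all 11425 tested genes were called. None of the members' 62 tested probe sets was called either, against 3.1% of all tested probe sets. At an unadjusted p under 0.05, 8 of the 27 (29.6%) differed, 5 higher and 3 lower in null arrays. Among all tested genes 24% did, 10.5% higher and 13.5% lower. In 9 members (33.3%) the values of the groups did not overlap, 6 with the null arrays above and 3 below. Among all tested genes this held for 32.2%, 14.9% above and 17.3% below. Both shares of the members lie near the background. A call needed an unadjusted p of at most 0.00155, so a gene could miss it with groups well apart. In a bulk sample, fewer cells that use a gene and less RNA per cell cannot be told apart.

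The differences went both ways and most were small. Their median was 0.06 on the log2 scale over the 27 tested members and 0.02 over all 33, beside -0.01 over all tested genes. Without regard to sign, the median was 0.39 among the members and 0.34 among all genes. In 15 members the difference was under 0.5, and in 3 (Itgb3, Tln2 and Itga8) it was over 1. The 95% interval lay wholly within a 2-fold change either way for 10 of the 15 tested genes that are not integrins, and for 2 of the 12 tested integrin subunits, Itgav and Itga7. Among the other 10 integrin subunits, the unadjusted interval lay to one side of 0 for Itgb3, Itga5, Itga6 and Itgb5, and for the other 6 it held both 0 and a 2-fold change.

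**Figure D1:**
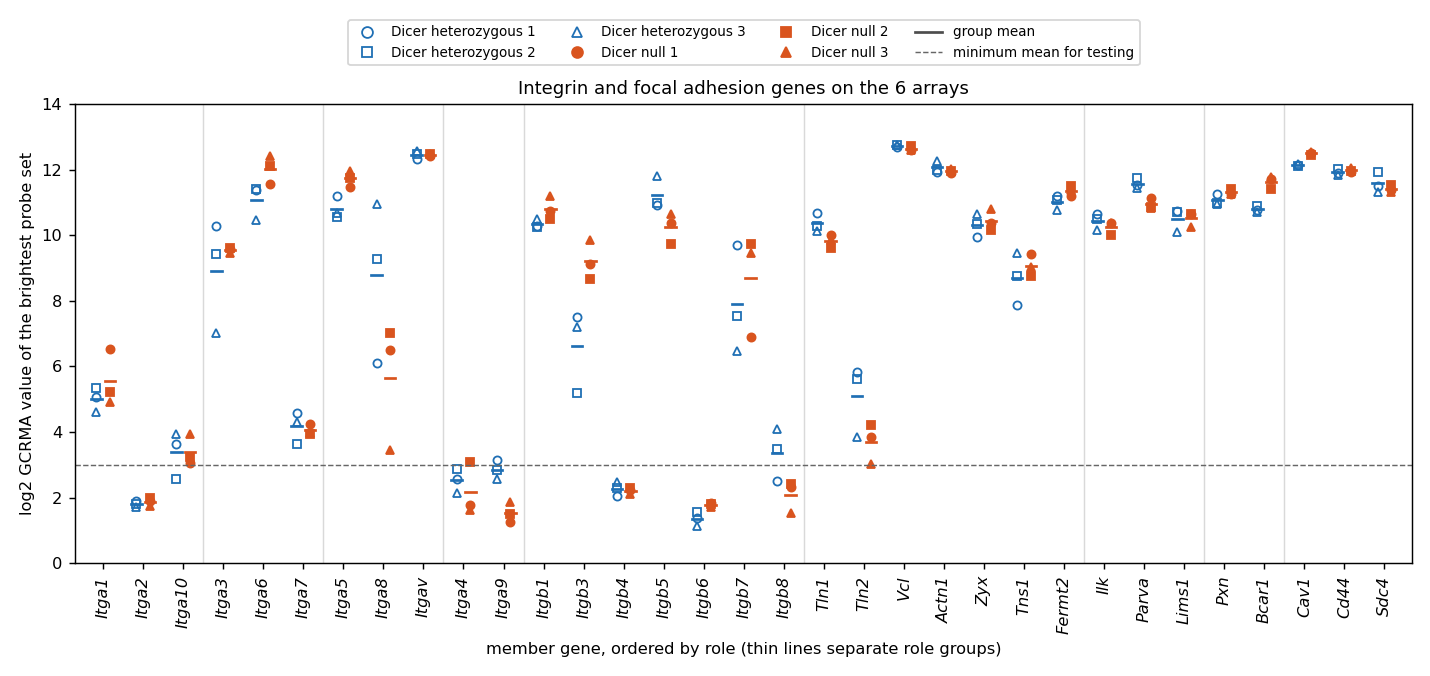
Log2 GCRMA value of the brightest probe set (vertical axis) of 33 integrin and focal adhesion genes (horizontal axis) on the 3 Dicer heterozygous (open) and 3 Dicer null (filled) arrays, with group means as bars. Genes such as Vcl, Cd44 and Itgav lie tight and level, Itgb3 separates the groups, and Itga8, Itga3 and Itgb7 scatter within a group.

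Among the alpha chains that bind RGD ligands, Itga5, the fibronectin receptor chain, stood at 11.19, 10.55 and 10.69 in heterozygous arrays and at 11.49, 11.75 and 11.98 in null arrays. Each null value lay above each heterozygous one. The brightest probe set was 1.91-fold higher in null arrays (log2 difference 0.93, SE 0.24, 95% interval 0.35 to 1.51; limma adjusted p = 0.0902). The probe sets of Itga5 disagreed. A dimmer one gave 1.26 (adjusted p = 0.054) in the same direction, and a pair of others gave -1.53 and -0.79 (limma adjusted p = 0.0517 and 0.146). Averaged over its tested probe sets, Itga5 differed by -0.03, so its direction depended on the choice of probe set.

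Itgav, the chain shared by several vitronectin and TGF-beta binding receptors, was nearly level. It read 12.34, 12.47 and 12.58 in heterozygous and 12.43, 12.48 and 12.49 in null arrays. The difference was 0.00 with a 95% interval of -0.36 to 0.37.

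Itga8, which pairs with beta 1 and binds nephronectin, had the widest spread of all members. Its values were 6.11, 9.27 and 10.97 in heterozygous arrays and 6.5, 7.01 and 3.44 in null arrays. Heterozygous replicate 1 lay below null replicates 1 and 2, so the groups overlapped. The null mean was 8.77-fold lower (log2 difference -3.13, SE 1.45, 95% interval -6.65 to 0.38; limma adjusted p = 0.258). Its spread within groups (SD 2.22) exceeded that of 99.4% of tested genes. Without heterozygous replicate 1 the difference was -4.47, and without null replicate 3 it was -2.03. Npnt, the gene of nephronectin, read 7.5, 8.41 and 6.39 against 5.4, 5.92 and 5.1 on the same arrays (log2 difference -1.96, SE 0.52, limma adjusted p = 0.0966). Npnt was not called without heterozygous replicate 1 or heterozygous replicate 2, and was called, lower, without heterozygous replicate 3. Npnt is named as the ligand of Itga8, outside the naming rule given below. Of the 11 tested integrin ligands 8 had negative and 3 positive differences, Tnc among the latter (1.25, limma adjusted p = 0.0928). Among all tested genes 48.7% had positive differences.

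Of the laminin-binding alpha chains, Itga6 read 11.38, 11.43 and 10.46 in heterozygous and 11.57, 12.12 and 12.41 in null arrays. The groups did not overlap, although the gap between the nearest arrays was small. The difference was 0.94 (SE 0.35, 95% interval 0.10 to 1.79; limma adjusted p = 0.179), and a dimmer probe set gave 1.74 (limma adjusted p = 0.184). The lowest value fell on heterozygous replicate 3, the array with the low proliferation genes, whose part in this difference was not tested. Without that array the difference was 0.63.

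Itga3, the other main laminin receptor chain here, read 10.28, 9.44 and 7.02 in heterozygous arrays and 9.60, 9.62 and 9.45 in null arrays. The null arrays were nearly alike, and heterozygous replicate 3 lay far below the rest. The dimmer probe sets of Itga3 showed the same array lowest, at 6.0 and 4.3, and gave differences of 0.70 and 0.00. The difference of 0.64 (SE 0.79, limma adjusted p = 0.673) became -0.30 without heterozygous replicate 3, and the part of that array's low proliferation genes in it was not tested. Itga7, the laminin receptor chain of muscle, was low throughout, at 3.64 to 4.59 on the 6 arrays.

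The collagen-binding chains were low. Itga1 lay between 4.61 and 6.54, its highest value on null replicate 1, with a difference of 0.56 (SE 0.45) that was 0.07 without that array. Itga10 lay between 2.55 and 3.94 with a difference of 0.02. Itga2 was below 3 on every array, at 1.70 to 1.98. The chains Itga4 and Itga9, which bind fibronectin and tenascin among others, had means below 3 and were not tested. Itga9 read 3.13, 2.85 and 2.55 in heterozygous and 1.24, 1.49 and 1.87 in null arrays; these groups did not overlap, but all but one of the values lay under the minimum of 3.

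Of the beta chains, Itgb3 showed the largest positive difference of all members. Itgb3 pairs with alpha V in a vitronectin receptor. It read 7.52, 5.19 and 7.19 in heterozygous arrays and 9.14, 8.67 and 9.87 in null arrays. Every null array lay above every heterozygous one, with a gap of more than 1 log2 unit. The null mean was 6.03-fold higher (log2 difference 2.59, SE 0.66, 95% interval 0.99 to 4.19), but with a limma adjusted p of 0.0895 the gene was not called. The low value on heterozygous replicate 2 widened both the difference and its error: without that array the difference was 1.87 (SE 0.40, limma adjusted p = 0.12). Its other probe set lay below 3 in mean and was not tested.

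Itgb5, another beta chain that pairs with alpha V to bind vitronectin, lay the opposite way from Itgb3. It read 10.94, 10.98 and 11.80 in heterozygous and 10.38, 9.74 and 10.66 in null arrays. The groups did not overlap. The null mean was 1.97-fold lower (log2 difference -0.98, SE 0.34, 95% interval -1.81 to -0.15; limma adjusted p = 0.162). All 4 of its probe sets had the same sign, with differences from -0.98 to -1.14, and none was called. The opposite signs of Itgb3 and Itgb5 were not themselves tested.

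Itgb1, the partner of most alpha chains above, read 10.30, 10.26 and 10.50 in heterozygous and 10.74, 10.50 and 11.19 in null arrays. The highest heterozygous array tied with the lowest null array. The difference was 0.46 (SE 0.22, 95% interval -0.08 to 1.0; limma adjusted p = 0.277). Its 5 tested probe sets all gave positive differences, from 0.46 to 0.70, and none was called.

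Itgb7, known from lymphocytes, was detected on every array and varied widely within both groups. It read 9.72, 7.55 and 6.47 in heterozygous and 6.90, 9.75 and 9.45 in null arrays. High and low values occurred in both groups, and the difference of 0.79 had an SE of 1.06. It was 0.06 without heterozygous replicate 3 and 1.69 without heterozygous replicate 1 or null replicate 1. The leukocyte marker Ptprc lay below 2 on all 6 arrays. Cd68, the only leukocyte marker tested, read 7.13, 5.24 and 5.30 in heterozygous and 5.30, 4.43 and 5.84 in null arrays. The usual partner of Itgb7, Itga4, did not exceed 3.09 on any array, and the other partner of Itgb7, Itgae, lay between 3.59 and 5.70. Itgb4, of epithelial hemidesmosomes, and Itgb6, of epithelia, lay below 3 on every array. Itgb8, which activates TGF-beta with alpha V, read 2.5, 3.49 and 4.1 in heterozygous and 2.33, 2.41 and 1.52 in null arrays and was not tested.

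**Figure D2:**
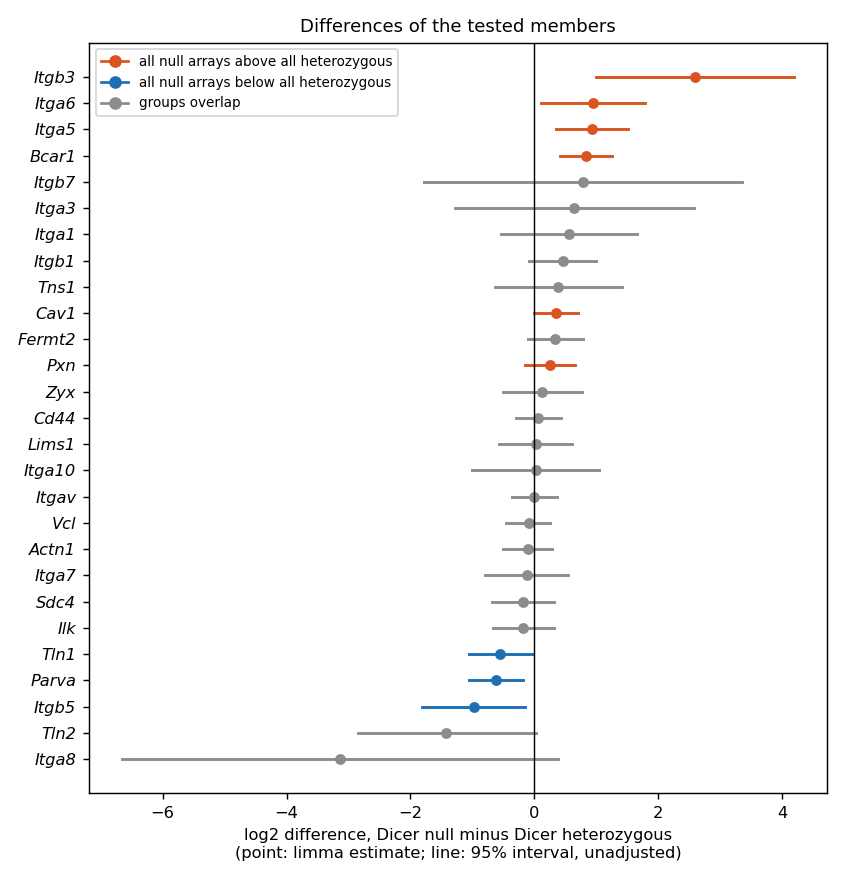
Log2 difference, Dicer null minus Dicer heterozygous (horizontal axis), of the 27 tested members (vertical axis), with 95% limma intervals not adjusted for the number of genes. Itgb3 lies highest at 2.59 and Itga8 lowest at -3.13 with the widest interval; colour marks the 9 members whose groups did not overlap.

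Of the structural plaque proteins, Vcl and Actn1 varied little between samples of a group. Vcl, which reinforces the link to actin, read 12.69, 12.77 and 12.76 in heterozygous and 12.61, 12.72 and 12.61 in null arrays. The groups overlapped, and the difference of -0.09 had a 95% interval of -0.45 to 0.26. Actn1, the actin crosslinker alpha-actinin, differed by -0.11 (interval -0.51 to 0.29). A dimmer probe set of Actn1 gave -1.15 (limma adjusted p = 0.28), and the mean over its probe sets was -0.47. The force-sensitive protein Zyx differed by 0.13 (interval -0.51 to 0.77). Fermt2, the kindlin of mesenchymal cells, differed by 0.34 (interval -0.11 to 0.79). A dim probe set of Fermt2, at 2.62 to 3.66, had the opposite sign without overlap of the groups (-0.74, limma adjusted p = 0.0821), and the mean over its probe sets was -0.07. Tns1, a tensin that binds the beta tail and actin, lay at 7.87 to 9.46 with a difference of 0.39 (SE 0.42).

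The 6 smooth muscle markers lay outside the list and were mostly genes of contractile actin or of proteins that bind it. Of these 6 markers, 3 were tested on the same arrays and 2 were called, both lower in null arrays (2% of all tested genes were). Acta2, smooth muscle actin, read 13.10, 12.71 and 12.92 in heterozygous and 7.86, 6.22 and 4.96 in null arrays. Acta2 fell by 6.56 and Tagln, transgelin, fell by 5.27 on the log2 scale (limma adjusted p = 0.0169 and 0.0238). A dim second probe set of Acta2 gave 0.50 (limma adjusted p = 0.293). In fits without 1 array these sizes were 5.87 to 7.32 and 4.64 to 6.01. Acta2 was not called without heterozygous replicate 2 or null replicate 2, nor Tagln without any one of the null replicates. Vcl, Actn1 and Zyx, whose products join actin bundles at adhesions, had the small differences given above on their brightest probe sets. On theirs, the other actin-linking members were Tln2 at -1.42, Tln1 at -0.55, Fermt2 at 0.34 and Tns1 at 0.39. Of 25 tested plaque and actin-linking genes outside the list, 19 had negative and 6 positive differences (48.7% of all tested genes were positive). The contrast between the genes was not tested.

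Talin, which activates integrins, has 2 genes. Tln1, the form found in most cells, read 10.69, 10.28 and 10.14 in heterozygous and 10.00, 9.61 and 9.86 in null arrays, without overlap. The difference was -0.55 (SE 0.21, 95% interval -1.06 to -0.03; limma adjusted p = 0.195). A dimmer probe set of Tln1 had the opposite sign, 1.21 (limma adjusted p = 0.175), and the mean of both was 0.33, so the direction depended on the probe set. Tln2 read 5.84, 5.63 and 3.85 in heterozygous and 3.85, 4.20 and 3.02 in null arrays. Heterozygous replicate 3 lay among the null values. The difference was -1.42 (SE 0.59, limma adjusted p = 0.221), and a dimmer probe set gave -1.86 (limma adjusted p = 0.0941).

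In the Ilk complex, which joins the beta tail to actin, Parva was lower in all null arrays. It read 11.53, 11.75 and 11.44 in heterozygous and 11.15, 10.88 and 10.84 in null arrays. The difference was -0.62 (SE 0.18, 95% interval -1.05 to -0.19; limma adjusted p = 0.112), a 1.53-fold lower mean. The second probe set of Parva gave only -0.15 (limma adjusted p = 0.79). The pseudokinase Ilk, at the centre of the complex, differed by -0.18 (interval -0.67 to 0.31), and Lims1 (Pinch), its adaptor, by 0.02 (interval -0.57 to 0.61).

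The scaffold Bcar1 (p130Cas), which the focal adhesion kinase and Src phosphorylate, came nearest to a call among the brightest probe sets. It read 10.79, 10.91 and 10.70 in heterozygous arrays and 11.72, 11.42 and 11.77 in null arrays. The groups were apart by more than the range of either. The null mean was 1.79-fold higher (log2 difference 0.84, SE 0.17, 95% interval 0.42 to 1.25; limma adjusted p = 0.0581). Its second probe set gave 1.15 (limma adjusted p = 0.0718), with null arrays at 9.20, 8.48 and 9.30 and heterozygous arrays at 7.99, 7.89 and 7.66. With trend and robust moderation in limma, the first probe set was called at an adjusted p of 0.0284.

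Pxn, paxillin, read 11.26, 10.99 and 10.95 in heterozygous and 11.27, 11.43 and 11.27 in null arrays. The groups touched without overlap, by a margin of one unit in the last digit. The difference was 0.26 (interval -0.15 to 0.66, limma adjusted p = 0.404). A dimmer probe set of Pxn gave 0.50 (limma adjusted p = 0.276), and there the groups overlapped.

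Cav1, the coat protein of caveolae, had the smallest within-group spread among the members, below that of all but 0.7% of tested genes. It read 12.14, 12.13 and 12.19 in heterozygous and 12.53, 12.44 and 12.55 in null arrays. Every null array was higher. The difference was small, 0.35 (SE 0.14, 95% interval 0.00 to 0.70; limma adjusted p = 0.211). Cd44, the hyaluronan receptor, stood at 11.85 to 12.05 on all arrays, with a difference of 0.06 (interval -0.30 to 0.43). Sdc4, the syndecan of focal adhesions, differed by -0.18 (interval -0.68 to 0.32).

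**Figure D3:**
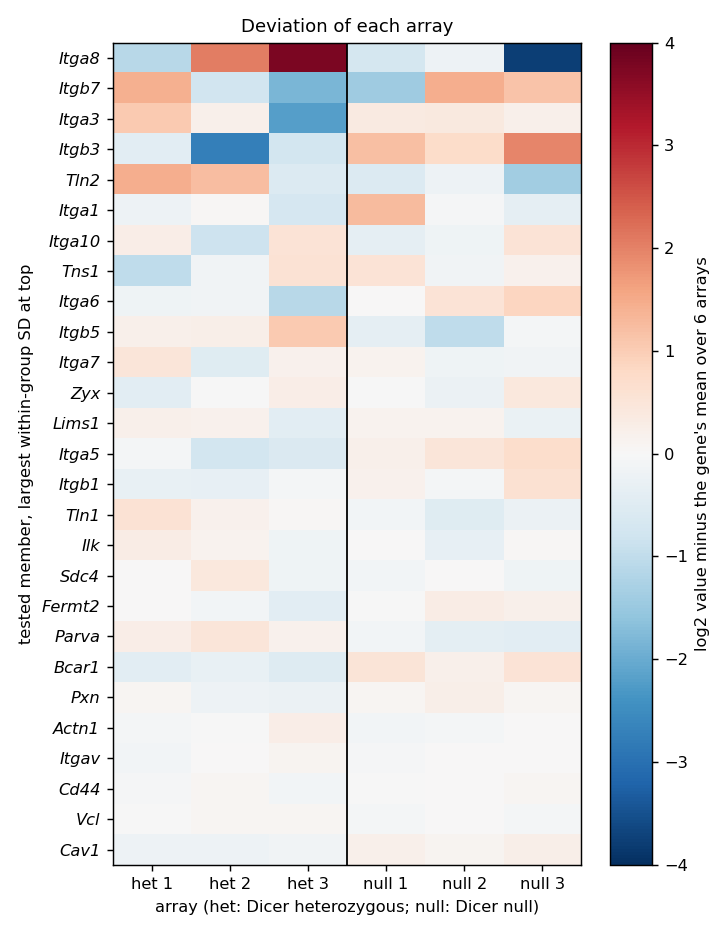
Log2 value of each of the 27 tested members (rows, largest within-group SD at the top) on each array (columns) minus the gene's mean over the 6 arrays, in colour. The strong colours at the top (Itga8, Itgb7, Itga3) run across arrays of the same group, Itgb3 splits by group, and the bottom rows (Cav1, Vcl, Cd44, Itgav) are nearly white.

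The spread between samples of a group differed widely among the members, in integrins and plaque proteins alike. The integrin chains Itga8, Itgb7, Itga3 and Itgb3 had within-group SDs of 2.22, 1.62, 1.20 and 0.99, at or above the percentile 93.3 of tested genes. Vcl, Cd44, Itgav and Cav1 had SDs of 0.05 to 0.09, at or below the percentile 4.1. Of the plaque proteins, Tln2 and Tns1 lay at the percentiles 91.5 and 82.2. The genes Vcl, Cd44, Itgav and Cav1 also had mean log2 values of 11.96 to 12.69, while the highest values on the arrays were 14.09 to 14.18, and the part of that level in their small spread was not tested. Of the 27 members, 9 had their lowest and 6 their highest value on heterozygous replicate 3. On null replicate 3, 8 had their highest and 4 their lowest value. The same counts were not made over all genes.

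Of the other adhesion genes, written down from general knowledge of the pathway, 94 of 104 had a probe set and 82 were tested. In limma 1 of them was called, lower, and 0 higher (1.22% of 82, against 3.46% of all genes). It was Itga2b, the platelet integrin chain, which read 4.66, 4.65 and 4.76 in heterozygous and 3.97, 3.74 and 3.70 in null arrays. The difference was -0.89 (SE 0.16, limma adjusted p = 0.0453), close to the threshold. The platelet markers Pf4 and Gp9 lay below 3 on all 6 arrays. Gp1bb, whose mean was below 3, read 2.86, 3.05 and 3.65 in heterozygous and 2.63, 2.3 and 1.98 in null arrays, without overlap, and Ppbp read 3.71 to 5.72 in heterozygous and 1.89 to 2.47 in null arrays (limma adjusted p = 0.0544). Itga2b was called in 0 of the 6 fits that leave out 1 array, with differences of -0.97 to -0.84 and limma adjusted p from 0.064 to 0.166.

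Among all tested genes 48.7% had positive differences. By role, the 25 tested plaque and actin-linking genes had 19 negative differences and a median of -0.28. The 26 tested signalling genes had a median of 0.04, with 15 above 0. The 6 tested caveolae genes had a median of -0.95, the 11 syndecan, hyaluronan and tetraspanin genes one of 0.33, and the 11 integrin ligands one of -0.28. None of these 5 lists held a called gene by its brightest probe set. In 37 of the 82 genes (45.1%, against 32.2% of all genes) the groups did not overlap, 15 of them higher and 22 lower in null arrays. At an unadjusted p under 0.05, 26 of the 82 (31.7%, against 24%) differed, 10 higher and 16 lower.

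A pair of these genes had a dimmer probe set that was called; they were chosen after their values were seen. Cavin2, a protein of the caveolar coat, read 9.05, 9.57 and 9.91 in heterozygous and 3.55, 6.17 and 2.69 in null arrays on that probe set (log2 difference -5.37, SE 0.87, limma adjusted p = 0.0379). On its brightest probe set the difference was -4.81 (SE 1.22, limma adjusted p = 0.0889), with 11.97, 11.90 and 11.98 against 7.03, 9.82 and 4.58. The heterozygous arrays were nearly alike and the null arrays scattered below them. Cav1, the partner of Cavin2 in the coat, had a difference of 0.35 on the same arrays. The other tested caveolae genes, none of them called, were Cavin3 at -1.70, Cavin4 at -1.55, Cavin1 at -0.35, Cav2 at 0.74 and Ehd2 at 0.41. Vcam1, a ligand of the integrin with Itga4, differed by 1.49 on the called probe set (limma adjusted p = 0.0422) and by 0.95 on the brightest (limma adjusted p = 0.0939). Each of these 2 calls held in 1 of the 6 fits without 1 array: that of Cavin2 without null replicate 2 and that of Vcam1 without heterozygous replicate 3.

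**Figure D4:**
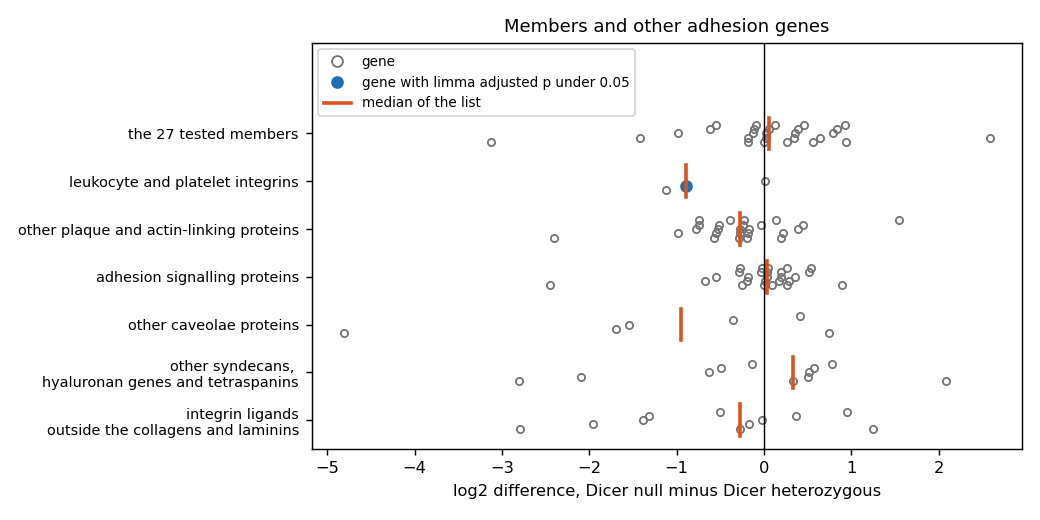
Log2 difference, Dicer null minus Dicer heterozygous (horizontal axis), of each tested gene, one row per list; the height within a row only keeps points apart. The bar is the list's median, and the filled point is Itga2b at -0.89, the single called gene.

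The start sites of the members were searched for the CArG box, the site of serum response factor, which drives many genes of actin and adhesion. The windows ran from 250 bases before to 50 after each start site in RefSeq (GRCm38.p6), and the motif reads the same on both strands. A promoter was at hand for 26 of the 33 members. Of these, 3 held a match (Vcl, Fermt2 and Itgb6), in 3 of 33 windows, while 1.63% of all 32851 windows held one. The windows of Vcl and Fermt2, the detected genes of the 3, are shown for that reason, 5′ to 3′ with the CArG box in capitals.
Vcl, chr14:20929161-20929190, plus strand: cccactatgcCCTTATAAGGagcgccccgc
Fermt2, chr14:45530250-45530279, minus strand: tccttcatttCCATAAAAGGgcagcgctcc
The match began 227 bases before the start site in Vcl and 204 before it in Fermt2. Neither gene was called, with differences of -0.09 and 0.34. A match is a run of letters and was not tested as a binding site.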

How the data were processed

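The values deposited by the authors are on the log2 scale, one per probe set on each of 6 Affymetrix 3′ expression arrays, and were made with GCRMA 2.20.0 in R 2.11.1 per the submitters' processing notes. GCRMA corrects background by probe sequence, equalises quantiles between arrays and summarises probes, so an overall shift in RNA amount is removed and values below about 3 depend on the background model. The settings and the chip definition were not given in the sources used here. Gene names came from the platform annotation (34945 with 1 symbol, 932 with several, 9160 with none), and 34741 matched the GRCm38.p6 gene table.

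Probe sets with a mean of at least 3 (24385 of 45037) were fitted with limma 3.58.1 in R 4.3.3 (lmFit, eBayes, two-sided, 6.27 degrees of freedom, no block), with Benjamini-Hochberg adjustment over all of them. Calls used an adjusted p under 0.05. The fit was tested on simulated data. Samples were grouped by title, and no batch is given. With 3 arrays per group, their number limits the precision. The naming rule covered members with a call, and those of the 12 largest member differences whose groups do not overlap. It also covered Itgb1, Pxn, Tln1, Ilk and called pathway genes. Some members outside the rule, such as Itga8, Itgav, Itga3, Itgb7, Vcl and Tln2, also have all their values given. Other members are given more briefly. Members and lists were chosen with earlier results of these data known. Alternatives were other minimums, scalings, moderation, weights, probe set choices, a floor, the replicate block and each array left out. Figures used matplotlib 3.10.9.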

Additional observations from a re-analysis of the deposited data

How the results depend on the processing

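All settings were planned, and why a value moved was not tested unless stated; the cause was not tested for any change of sign. The count of called members, 0, was also 0 in 16 of 18 alternatives. It was 1, higher (Bcar1), with trend and robust moderation in limma, and 5 with gene-by-gene array weights (3 higher: Bcar1, Itga5 and Itgb3; 2 lower: Parva and Tln2), where 13.1% of all genes were called and the members' median was 0.19 in place of 0.06. Without 1 array that median was 0.04 to 0.12. The pathway count of 1, lower, became 4 with trend and robust moderation (Arhgef7, Cav2 and Cd81 higher, 3 in all, and Cd82 lower; Itga2b was not called, adjusted p = 0.0712), 16 (5 higher, 11 lower) with array weights, and 0 with ordinary t statistics, where all genes gave 0 calls too. Without 1 array it was 0 to 4 (0 to 2 higher, 0 to 2 lower), where all genes gave 31 to 464 calls in place of 395, over smaller fits. Same-numbered arrays had deviations correlated at -0.06, 0.11 and 0.24. With 3 arrays per group, these values cannot decide whether same-numbered samples shared a culture or a batch. With the replicate block, a fit with fewer degrees of freedom, 0 members and 0 pathway genes were called, and 73 genes in all. Of the 27 members 16 kept their sign throughout. The sign changed for Lims1 in 7 settings (-0.01 with quantile normalization again and -0.01 with centred arrays, -0.14 with weights, -0.12 with averaged probe sets, and -0.19 to 0.15 without 1 array), for Itga5 (-0.03 averaged, -1.53 without s or x probe sets), Tln1 (0.33 averaged), Fermt2 (-0.07 averaged), Cd44 (-0.01 with weights), Itgav (-0.02 with centred arrays, -0.06 to 0.06 without 1 array), Itga7 (0.23 with weights, -0.39 to 0.09 without 1 array) and Itga10 (0.00 with centred arrays, -0.13 with the floor, -0.39 to 0.30 without 1 array). Without 1 array Zyx ran from -0.06 to 0.29, Tns1 from -0.02 to 0.77 and Itga3 from -0.30 to 1.33. Signal over background limits Itga2, Itga4, Itga9, Itgb4, Itgb6 and Itgb8; with no minimum, none of them was called.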

Other observations

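Genes of the adhesion plaque outside the list also varied between samples of one group. The genes named here were chosen after their values were seen. Parvb, a parvin related to Parva, read 9.59, 7.82 and 4.69 in heterozygous and 8.15, 9.38 and 9.21 in null arrays, lowest on heterozygous replicate 3 as Itga3 was. Lims2, the second Pinch protein, read 6.97 on heterozygous replicate 1 and 2.74 to 3.77 elsewhere. On that array the thin-filament protein Lmod1 stood at 6.54 against 2.27 to 3.38, the skeletal actin Acta1 at 7.75 against 3.13 to 4.91, and the surface protein Thy1 at 4.29 against 1.45 to 1.77. Tgfb1i1 (Hic-5), a paxillin relative, read 8.14, 4.79 and 8.08 in heterozygous and 7.69, 5.43 and 5.56 in null arrays. Has2, a hyaluronan synthase, read 3.60, 5.12 and 5.82 against 5.92, 8.51 and 6.37, each null value above each heterozygous one (limma adjusted p = 0.206).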
